A study of Mus musculus with 10 samples.

Results

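The 47 genes described here encode proteins of germ cells and of meiosis. They were taken from a fixed list of gene symbols, and 27 of them reached a transcript abundance of at least 1 TPM in at least 2 of 10 RNA-seq libraries. TPM is the relative abundance of a transcript within a library, corrected for its length. All 47 were among the 21853 genes of the deposited tables, of which 12060 passed the same filter and were tested. The libraries came from 5 lines of J1 mouse embryonic stem cells (ESCs), with 2 libraries per line. Naïve ESCs (genotype WT), AKO (AMPK KO), GKO (GYS1 KO) and DKO (AMPK, GYS1 KO) were grown on gelatin with LIF at 1000 U/ml, the MEK inhibitor PD0325901 at 1 μM and the GSK3 inhibitor CHIR99021 at 3 μM. Primed ESCs (PJ1, genotype WT) were grown on Matrigel with bFgf at 10 ng/ml and Activin at 20 ng/ml. According to the methods of the study, Gys1 was disrupted by an indel in exon 9, and single colonies were expanded. AMPK was disrupted through its catalytic subunit gene Prkaa1 with donor plasmids that carry RFP. The sources used here do not state which clone, or how many clones, the libraries of a line stand for.

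Germ cells silence transposons with piRNAs, small RNAs that are made and used in granules by PIWI proteins, Tudor proteins and the helicase DDX4. In meiosis, homologous chromosomes are organised along an axis of cohesin and HORMA-domain proteins and are joined by the synaptonemal complex, while DMC1 and its partners exchange strands between them. Many of these genes have CpG-rich promoters that are methylated in somatic tissues and in the epiblast after implantation. In ESCs, a Polycomb complex named PRC1.6 is known to occupy such promoters through MGA with MAX, which recognise the E-box CACGTG, and through E2F6, which recognises TCCCGC.

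Changes below are differences of log2(TPM + 1) between lines, tested with limma across all 12060 genes and called at an adjusted p under 0.05. Prkaa1 had levels of 15.5 and 16.6 TPM in naïve ESCs, 12.2 and 11.96 in GKO, 7.24 and 6.94 in AKO, and 2.30 and 2.04 in DKO. The Gys1 mRNA of naïve ESCs was at 11.5 and 10.8 TPM and that of GKO at 9.695 and 9.98 TPM, which did not pass the threshold (limma, adjusted p = 0.05). RNA of Prkaa2, the gene of another catalytic subunit of AMPK, was present in all 4 lines in naïve medium. Its TPM values were 2.7 and 2.4 (AKO), 3.3 and 3.1 (DKO), 2.4 and 2.4 (naïve ESCs), and 3.3 and 3.3 (GKO). An mRNA level does not measure the protein that an indel removes, or the AMPK activity left in AKO and DKO. Below, cells with and without AMPK are named by the label of their line. The 10 naïve pluripotency markers summed to between 1740 and 2030 TPM in naïve ESCs, AKO, GKO and DKO and to 170.0 and 180.0 TPM in primed ESCs. Of 6 markers of mature spermatids, the protamines Prm1 and Prm2 and the transition proteins Tnp1 and Tnp2 were listed at 0 in every library, and all 6 summed to at most 0.154 TPM. The 10 listed markers of 2-cell-like cells summed to 2.73 and 1.89 TPM in DKO, 0.089 and 0.121 in GKO, and between 1.05 and 1.46 in naïve ESCs and AKO. Lines also differed outside the labelled genes. The Y-linked gene Eif2s3y was listed at 0 in naïve ESCs, AKO and primed ESCs but was at 41.5 and 38.0 TPM in GKO and 37.3 and 37.4 TPM in DKO. Ddx3y and Uty were likewise listed at 0 outside GKO and DKO, and these lines differed in them, with Ddx3y at 8.11 and 7.83 TPM in GKO and 22.9 and 20.9 TPM in DKO, and Uty at 2.36 and 2.35 TPM in GKO and 7.05 and 6.24 TPM in DKO. Loss of Gys1 or of AMPK and other differences between the lines therefore cannot be told apart in the comparisons of GKO with naïve ESCs, of DKO with AKO and of GKO with DKO, or in the interaction that joins them. In bulk RNA, a change in the share of cells that express a gene and a change in each cell's RNA cannot be told apart either.

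The listed genes were low on the whole, and Tex19.1 alone made up a large share of their RNA. All 47 summed to 260.0 and 263 TPM in naïve ESCs, 284 and 289 in AKO, 187 and 187 in GKO, 161 and 158 in DKO, and 31.6 and 37.6 in primed ESCs. Without Tex19.1 the sums were 148 and 148 in naïve ESCs, 160.0 and 158 in AKO, 153 and 155 in GKO, 131 and 127 in DKO, and 30.9 and 36.4 in primed ESCs. In naïve ESCs, 5 genes had a mean of at least 10 TPM (Tex19.1, Kit, Syce2, Sohlh2 and Syce1), and 19 lay between 1 and 10 TPM. Dmc1, Meioc and Stra8 were under 1 TPM there. Meioc and Stra8 passed the filter through their GKO libraries alone, and Tex19.2 and Prdm1 through their naïve and AKO libraries alone, so that a difference with loss of Gys1 was built into the selection of these 4 genes. They are described by their levels, with no test of that difference, and counts are given with and without them. The 20 genes that did not pass were Asz1, Brdt, Dpep3, Figla, Majin, Mei1, Meiob, Nobox, Piwil4, Rad21l, Rnf212, Smc1b, Sohlh1, Spo11, Syce3, Sycp2, Tdrd1, Tdrd5, Tdrd9 and Tex101. In 11 of them no library reached 0.2 TPM, among them Spo11, whose product makes the breaks that start meiotic recombination, with a highest value of 0.072 TPM. Just outside the filter, Syce3 reached 1.53 TPM in 1 library and 0.766 in the next, and just inside it Meioc reached 1.11 and 1.01.

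**Figure D1:**
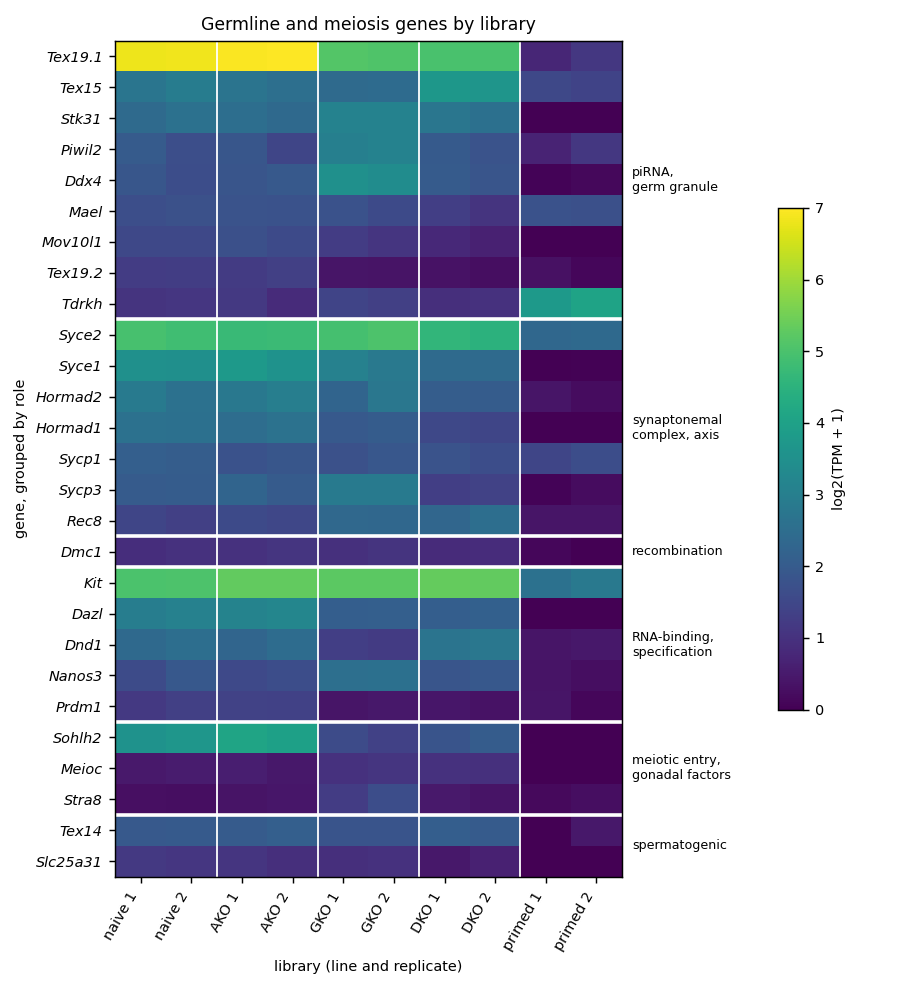
Heat map of log2(TPM + 1) for the 27 genes that passed the filter (rows, grouped by role) in the 10 libraries (columns). Tex19.1 is the brightest row in naïve ESCs and AKO, at 111 to 131 TPM, and most rows are dark in primed ESCs, where Tdrkh is the exception at 12.5 and 15.7 TPM.

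The promoters of the genes on which the comparisons below turn most are shown first, as the 250 bases before the transcription start from RefSeq (assembly GRCm38.p6), 5′ to 3′ on the strand of the gene. Capitals mark CACGTG and, on either strand, TCCCGC (read as GCGGGA on the strand shown). Ddx4 and Sycp3 differed most between GKO and DKO. Hormad1, like Syce1 and others not shown, was lowest in DKO among the naïve-medium lines. Tex19.1, Dazl and Sohlh2 were low in both lines without Gys1. Ddx4 is shown from chr13:112652311-112652560 (minus strand), Sycp3 from chr10:88459337-88459586 (plus), Hormad1 from chr3:95559427-95559676 (plus), Tex19.1 from chr11:121145893-121146142 (plus), Dazl from chr17:50293621-50293870 (minus) and Sohlh2 from chr3:55181794-55182043 (plus).
Ddx4: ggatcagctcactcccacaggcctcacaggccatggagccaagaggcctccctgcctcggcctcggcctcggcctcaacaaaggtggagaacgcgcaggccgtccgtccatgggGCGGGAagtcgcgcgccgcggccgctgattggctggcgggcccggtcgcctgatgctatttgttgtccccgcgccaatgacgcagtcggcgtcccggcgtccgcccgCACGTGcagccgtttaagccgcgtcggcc
Sycp3: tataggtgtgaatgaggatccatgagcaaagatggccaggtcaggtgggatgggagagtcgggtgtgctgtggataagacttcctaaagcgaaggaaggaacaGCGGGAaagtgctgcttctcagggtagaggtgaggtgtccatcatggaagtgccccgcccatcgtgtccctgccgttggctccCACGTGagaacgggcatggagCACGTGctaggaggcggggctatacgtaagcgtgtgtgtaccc
Hormad1: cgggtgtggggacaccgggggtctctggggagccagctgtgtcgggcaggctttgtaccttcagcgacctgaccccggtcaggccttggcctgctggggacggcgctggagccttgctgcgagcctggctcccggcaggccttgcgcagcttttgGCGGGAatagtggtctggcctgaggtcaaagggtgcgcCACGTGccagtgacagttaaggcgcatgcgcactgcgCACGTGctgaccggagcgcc
Tex19.1: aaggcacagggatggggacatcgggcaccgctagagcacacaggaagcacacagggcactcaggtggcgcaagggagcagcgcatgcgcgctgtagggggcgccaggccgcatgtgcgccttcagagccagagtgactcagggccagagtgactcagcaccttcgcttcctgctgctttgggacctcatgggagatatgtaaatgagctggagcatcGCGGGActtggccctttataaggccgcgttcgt
Dazl: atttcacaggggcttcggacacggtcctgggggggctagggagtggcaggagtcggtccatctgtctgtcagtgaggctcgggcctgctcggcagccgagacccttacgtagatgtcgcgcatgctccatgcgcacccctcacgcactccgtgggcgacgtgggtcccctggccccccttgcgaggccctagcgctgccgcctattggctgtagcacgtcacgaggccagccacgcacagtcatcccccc
Sohlh2: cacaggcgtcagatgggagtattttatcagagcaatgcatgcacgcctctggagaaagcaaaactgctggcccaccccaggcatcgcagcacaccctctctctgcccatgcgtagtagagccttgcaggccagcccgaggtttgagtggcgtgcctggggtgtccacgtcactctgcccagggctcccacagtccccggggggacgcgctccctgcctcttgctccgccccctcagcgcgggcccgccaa

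Ddx4 held 1 CACGTG, 23 bases before its start, and 1 TCCCGC, 130 bases before it. Sycp3 held CACGTG at 37 and 58 bases and TCCCGC at 141 bases, and Hormad1 held CACGTG at 14 and 51 bases and TCCCGC at 89 bases before the start. Tex19.1 held only TCCCGC, at 27 bases, and neither run of letters was in the windows of Dazl and Sohlh2. Over windows from 250 bases before to 50 after the start, 41 of the 47 genes had a promoter in the RefSeq table, and those of Tex15, Piwil2, Dnd1, Spo11, Meiob and Majin were not used here. CACGTG was in 13 of the 41 (31.7%), against 7.24% of 27025 genes and 10.6% of 9506 genes that passed the filter. TCCCGC was in 16 of the 41 (39.0%), against 20.0% and 37.6%, and both were in 7 (17.1%), against 2.05% and 4.16%. The 41 include 17 genes that did not pass the filter. Among the 24 that passed, CACGTG was in 8 (33.3%), TCCCGC in 13 (54.2%) and both in 6 (25.0%). The median ratio of observed to expected CpG was 0.674 in the 41 promoters and 0.695 in the 24. It was 0.389 over all genes and 0.777 over genes that passed the filter. The 6 promoters shown do not stand for the other genes with like changes. Over the same windows Syce1, also lowest in DKO, held neither run of letters, nor did Stra8 and Nanos3, both highest in GKO. Mov10l1, lower in GKO and DKO, held 1 CACGTG. Both were in 4 of 9 promoters of genes with an interaction called above 0 below. They were in 1 of 8 of genes that fell in GKO against naïve ESCs and in DKO against AKO. These matches describe letters in a window and show no binding.

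The first question was how levels of these genes differed with the GYS1 KO label, in lines with and without the AMPK KO label. Gys1 encodes the muscle isoform of glycogen synthase. In GKO against naïve ESCs, 9 genes rose and 10 fell, so that 19 of 27 were called, where 51.7% of all tested genes were called (24.7% higher and 27.1% lower). In DKO against AKO, which shares no library with that comparison, 4 rose and 13 fell, so that 17 of 27 were called, where 46.3% of all tested genes were called (22.4% higher and 23.9% lower). Without Meioc, Prdm1, Stra8 and Tex19.2, 15 of 23 were called in the former (7 higher and 8 lower) and 14 of 23 in the latter (3 higher and 11 lower), where 53.5% and 48.1% of all genes were called once those that passed through 1 side were left out in the same way. With a change of at least 1 on the log2 scale also required, 6 genes were called in each comparison, where 3.59% and 3.11% of all tested genes were. Stra8, whose high level in GKO was built into its selection, was among the 6 of the former. The median change of the 27 was -0.14 in the former and -0.18 in the latter on the log2 scale, beside -0.01 and -0.00 over all genes tested. Dazl, Hormad1, Mov10l1, Prdm1, Sohlh2, Syce1, Tex19.1 and Tex19.2 fell in both comparisons, and Meioc and Rec8 rose in both, with Meioc, Prdm1 and Tex19.2 subject to the limit on their selection. Dnd1, Sycp3 and Tex15 were called in opposite directions. Thus 10 of the 13 genes called in both (76.9%) went the same way. Of all tested genes 30.4% were called in both, and 87.5% of those went the same way, so such agreement was not particular to the listed genes. A further 6 genes were called in GKO against naïve ESCs but not in DKO against AKO, namely Ddx4, Kit, Nanos3, Piwil2, Stk31 and Stra8. For Stra8 this was built into its selection and is no result. The reverse held for Hormad2, Mael, Slc25a31 and Syce2.

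Whether the 2 changes differed was tested with the interaction, the change in GKO against naïve ESCs minus that in DKO against AKO. It was called for 12 of 27 genes, where 25.8% of all tested genes were called (12.8% above 0 and 13.1% below). With a value of at least 1 also required, the interaction was called for 5 (Stra8 among them), where 2.89% of all tested genes were. Without Meioc and Stra8, which reached 1 TPM in GKO alone, it was called for 11 of 25, where 26.8% of all genes were called without those that reached 1 TPM in a single line. It was above 0 for Ddx4, Hormad1, Mael, Mov10l1, Nanos3, Piwil2, Stra8, Syce1, Syce2 and Sycp3, and below 0 for Dnd1 and Tex15. The calls of Ddx4, Dnd1, Hormad1, Syce1, Sycp3 and Tex15 were kept whichever library was left out, as was that of Stra8, whose high level in GKO was built into its selection, whereas those of Mael, Mov10l1, Nanos3, Piwil2 and Syce2 were not. Without the first AKO library or without the second DKO library, 7 of the 12 were called.

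**Figure D2:**
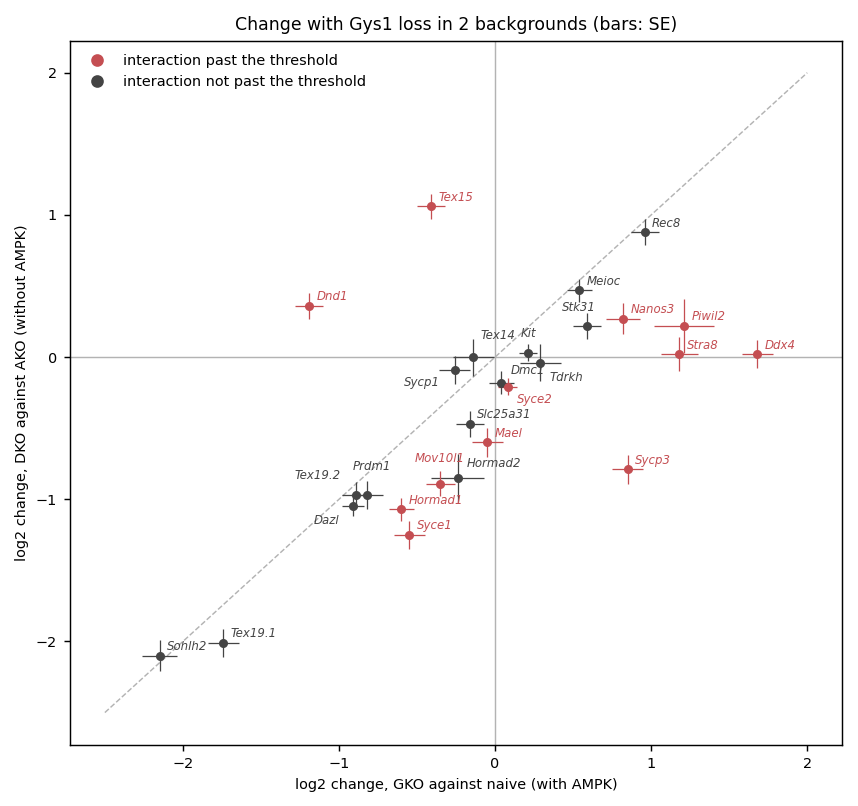
Change with loss of Gys1 on the log2(TPM + 1) scale in cells with AMPK (x axis, GKO against naïve ESCs) and without AMPK (y axis, DKO against AKO) for the 27 genes, with bars of 1 standard error and a dashed line of equal change. Tex19.1 and Sohlh2 lie at the lower left near the line, while Ddx4, Stra8 and Sycp3 lie right of it and Dnd1 and Tex15 left of it; red marks the 12 genes whose interaction was called.

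Among the genes of the piRNA pathway and germ granules, 9 of 14 passed the filter. Tex19.1 was lower in the line with the GYS1 KO label in both backgrounds. TEX19 proteins restrain retrotransposons in germ cells, and the genes lie close together on chromosome 11 in assembly GRCm39, Tex19.2 at chr11:121007041-121009503 (minus strand) and Tex19.1 at chr11:121036969-121039145 (plus strand). Tex19.1 had levels of 111 and 114 TPM in naïve ESCs, 124 and 131 in AKO, 33.9 and 32.4 in GKO, 30.6 and 31.0 in DKO, and 0.687 and 1.18 in primed ESCs. Tex19.2 had levels of 1.37 and 1.42 TPM in naïve ESCs, 1.34 and 1.51 in AKO, 0.305 and 0.283 in GKO, 0.273 and 0.204 in DKO, and 0.241 and 0.090 in primed ESCs. Both genes were lower in every library of GKO and DKO than in every library of naïve ESCs and AKO. Tex19.1 fell by 1.74 on the log2 scale in GKO against naïve ESCs (SE 0.10, limma adjusted p = 4.68e-06) and by 2.01 in DKO against AKO (SE 0.10, adjusted p = 3.34e-06). For Tex19.2 the difference was -0.89 in GKO against naïve ESCs and -0.97 in DKO against AKO, given with no test because the gene passed the filter only where it was high. The interaction was not called for either gene (limma adjusted p = 0.188 for Tex19.1 and 0.675 for Tex19.2).

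Ddx4 (the Vasa helicase of germ granules) and Piwil2 (a PIWI protein that binds piRNAs) were instead high in GKO alone. Ddx4 had levels of 2.68 and 2.17 TPM in naïve ESCs, 2.59 and 2.84 in AKO, 10.4 and 9.53 in GKO, 3.00 and 2.57 in DKO, and 0.045 and 0.109 in primed ESCs. Piwil2 had levels of 3.04 and 2.22 TPM in naïve ESCs, 2.697 and 1.74 in AKO, 7.11 and 7.58 in GKO, 2.94 and 2.48 in DKO, and 0.622 and 1.20 in primed ESCs. For both genes the GKO libraries lay above all the others, and those of naïve ESCs, AKO and DKO overlapped. Ddx4 rose by 1.68 in GKO against naïve ESCs (SE 0.10, limma adjusted p = 5.45e-06), with an interaction of 1.66 (SE 0.14, adjusted p = 0.000162). In DKO against AKO it was not called (limma adjusted p = 0.867). Piwil2 rose by 1.21 in GKO against naïve ESCs (SE 0.19, limma adjusted p = 0.000698), with an interaction of 0.99 (SE 0.26, adjusted p = 0.0241). Piwil2 lies on chromosome 14, whose tested genes had a median change of 0.47 in GKO against naïve ESCs, and relative to its chromosome the change was 0.73 (limma adjusted p = 0.012). Stk31, a Tudor-domain protein kinase of the testis, had levels of 4.36 and 5.08 TPM in naïve ESCs, 4.73 and 4.24 in AKO, 7.66 and 7.53 in GKO, 5.77 and 5.01 in DKO, and 0 in primed ESCs. It rose by 0.59 in GKO against naïve ESCs (SE 0.09, limma adjusted p = 0.000847), and the interaction was not called (adjusted p = 0.0715).

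Tex15, which takes part in piRNA-directed silencing and in meiotic repair, was high in DKO alone, at 12.05 and 11.7 TPM. It had levels of 5.62 and 6.68 TPM in naïve ESCs, 4.33 and 4.43 in GKO, 5.44 and 4.87 in AKO, and 1.86 and 1.64 in primed ESCs. The DKO libraries lay above all the others without overlap. Tex15 rose by 1.06 in DKO against AKO (SE 0.09, limma adjusted p = 3.97e-05) and fell by 0.41 in GKO against naïve ESCs (SE 0.09, adjusted p = 0.00547), with an interaction of -1.47 (SE 0.13, adjusted p = 0.000177).

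Mov10l1, the helicase that feeds transcripts into piRNA production, and Mael, a factor of transposon silencing, were lowest in DKO among the 4 lines in naïve medium. Mov10l1 had levels of 1.84 and 1.84 TPM in naïve ESCs, 2.25 and 1.95 in AKO, 1.35 and 1.12 in GKO, 0.764 and 0.572 in DKO, and 0.009 and 0 in primed ESCs. Mael had levels of 2.23 and 2.36 TPM in naïve ESCs, 2.47 and 2.38 in AKO, 2.41 and 1.95 in GKO, 1.44 and 1.09 in DKO, and 2.37 and 2.26 in primed ESCs. For both genes the DKO libraries lay below every library of naïve ESCs, AKO and GKO. Mov10l1 fell by 0.89 in DKO against AKO (SE 0.09, limma adjusted p = 0.000101) and by 0.35 in GKO against naïve ESCs (SE 0.09, adjusted p = 0.0123). Relative to its chromosome, 15, the latter was -0.17 and was not called (limma adjusted p = 0.18). Mael fell by 0.60 in DKO against AKO (SE 0.10, limma adjusted p = 0.00144) and was not called in GKO against naïve ESCs (adjusted p = 0.684). Tdrkh, a Tudor protein of the mitochondrial surface on which piRNAs mature, was between 0.832 and 1.69 TPM in these 4 lines and was called in neither comparison.

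**Figure D3:**
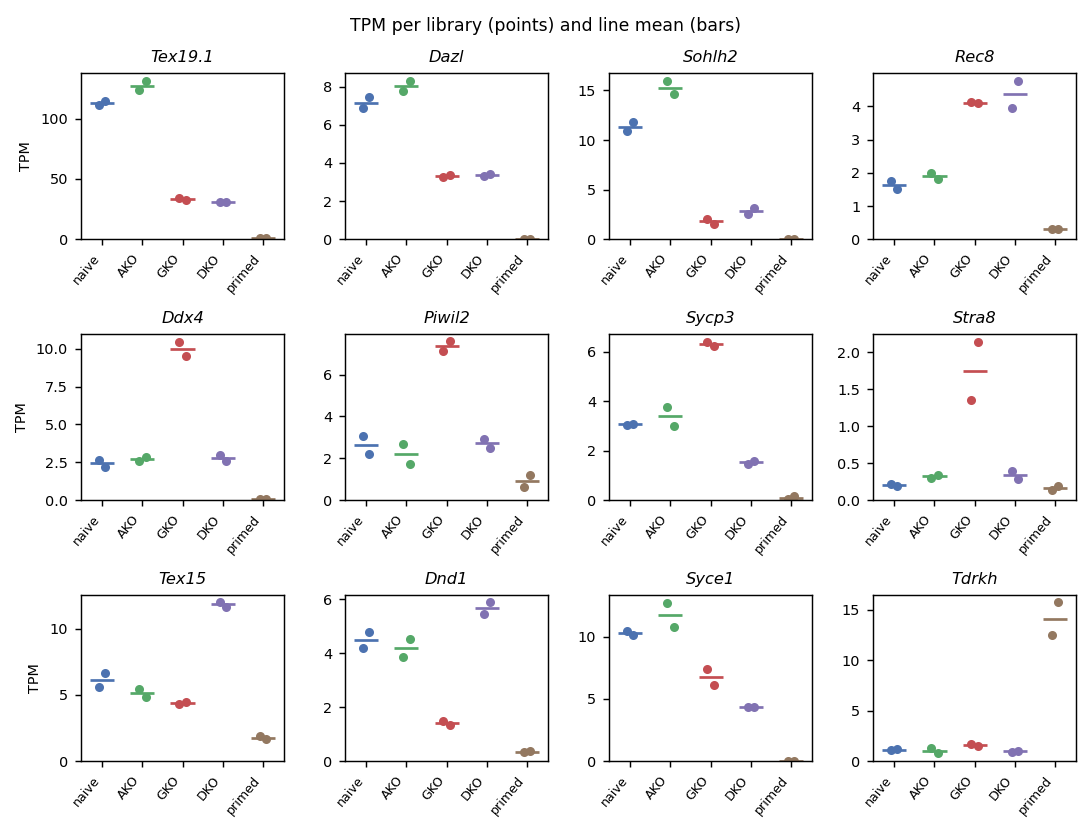
TPM of 12 genes in the 5 lines, with a point for each library, a bar at the mean of each line and a y axis from 0 in each panel. Tex19.1, Dazl and Sohlh2 are low in both GKO and DKO, Ddx4, Piwil2, Sycp3 and Stra8 are high in GKO alone, Tex15 is high in DKO alone, and Tdrkh is high in primed ESCs alone.

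Among the genes of the synaptonemal complex and the meiotic chromosome axis, 7 of 12 passed the filter, and Sycp3 moved in opposite directions in the 2 backgrounds. Sycp3, a filament of the chromosome axis, had levels of 3.04 and 3.08 TPM in naïve ESCs, 3.76 and 3.01 in AKO, 6.38 and 6.23 in GKO, 1.46 and 1.59 in DKO, and 0.039 and 0.176 in primed ESCs. The GKO libraries were the highest and the DKO libraries the lowest of the 4 lines in naïve medium, with no overlap. It rose by 0.85 in GKO against naïve ESCs (SE 0.10, limma adjusted p = 0.000164) and fell by 0.79 in DKO against AKO (SE 0.10, adjusted p = 0.000305), with an interaction of 1.64 (SE 0.14, adjusted p = 0.000164).

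Syce1, a central element protein of the synaptonemal complex, and Hormad1, which marks unsynapsed axes, fell in both backgrounds and fell further without AMPK. Syce1 had levels of 10.5 and 10.2 TPM in naïve ESCs, 12.7 and 10.8 in AKO, 7.45 and 6.10 in GKO, 4.38 and 4.36 in DKO, and 0 and 0.023 in primed ESCs. Hormad1 had levels of 5.10 and 4.98 TPM in naïve ESCs, 4.68 and 5.19 in AKO, 2.90 and 3.08 in GKO, 1.86 and 1.77 in DKO, and 0 in primed ESCs. In both genes GKO lay between DKO below and naïve ESCs and AKO above, with no overlap. Syce1 fell by 0.55 in GKO against naïve ESCs (SE 0.10, limma adjusted p = 0.00199) and by 1.25 in DKO against AKO (SE 0.10, adjusted p = 3.04e-05), with an interaction of 0.70 (SE 0.14, adjusted p = 0.00819). Hormad1 fell by 0.60 in GKO against naïve ESCs (SE 0.08, limma adjusted p = 0.00023) and by 1.07 in DKO against AKO (SE 0.08, adjusted p = 1.44e-05), with an interaction of 0.48 (SE 0.11, adjusted p = 0.0121).

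Rec8, the cohesin subunit that holds sister chromatids together in meiosis, rose in both backgrounds. It had levels of 1.75 and 1.51 TPM in naïve ESCs, 1.99 and 1.83 in AKO, 4.12 and 4.10 in GKO, 3.94 and 4.77 in DKO, and 0.306 and 0.314 in primed ESCs. Every library of GKO and DKO lay above every library of the other 3 lines. Rec8 rose by 0.96 in GKO against naïve ESCs (SE 0.09, limma adjusted p = 6.06e-05) and by 0.88 in DKO against AKO (SE 0.09, adjusted p = 0.000119). Like Piwil2 it lies on chromosome 14, where the median changes were 0.47 and 0.38, and relative to its chromosome Rec8 rose by 0.48 (limma adjusted p = 0.00322) and 0.49 (adjusted p = 0.00337).

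Of the others in this group, Hormad2, a relative of Hormad1, had levels of 6.42 and 5.10 TPM in naïve ESCs, 5.995 and 7.01 in AKO, 3.75 and 5.83 in GKO, 3.16 and 3.14 in DKO, and 0.317 and 0.182 in primed ESCs. It fell by 0.85 in DKO against AKO (SE 0.17, limma adjusted p = 0.00314), while the GKO libraries overlapped those of naïve ESCs and the change was not called (adjusted p = 0.261). Syce2, another central element protein, had levels of 30.3 and 27.9 TPM in naïve ESCs, 26.0 and 26.4 in AKO, 29.9 and 31.7 in GKO, 23.4 and 21.7 in DKO, and 4.06 and 4.28 in primed ESCs. It fell by 0.21 in DKO against AKO (SE 0.06, limma adjusted p = 0.0238), a call that was lost when the libraries were rescaled to the same sum (adjusted p = 0.185). Sycp1, the transverse filament of the complex, stayed between 2.16 and 3.36 TPM in the 4 lines in naïve medium and was called in neither comparison. Dmc1, the strand exchange protein and the only one of 5 recombination genes to pass the filter, lay between 0.808 and 1.13 TPM in these lines and was called in neither.

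Of the 5 genes of germ cell specification, RNA binding and signalling, all passed the filter, and Dazl fell in both backgrounds. Dazl encodes an RNA-binding protein needed for germ cell commitment to meiosis, and Prdm1 encodes the repressor BLIMP1 of early germ cell specification. Dazl had levels of 6.89 and 7.43 TPM in naïve ESCs, 7.75 and 8.29 in AKO, 3.28 and 3.38 in GKO, 3.30 and 3.42 in DKO, and 0 in primed ESCs. Prdm1 had levels of 1.26 and 1.51 TPM in naïve ESCs, 1.605 and 1.54 in AKO, 0.319 and 0.380 in GKO, 0.352 and 0.277 in DKO, and 0.313 and 0.089 in primed ESCs. The libraries of GKO and DKO overlapped each other and lay below those of naïve ESCs and AKO. Dazl fell by 0.91 in GKO against naïve ESCs (SE 0.07, limma adjusted p = 2.16e-05) and by 1.05 in DKO against AKO (SE 0.07, adjusted p = 1.39e-05). Prdm1, like Tex19.2, is given with no test, with differences of -0.82 in GKO against naïve ESCs and -0.97 in DKO against AKO.

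Dnd1, which encodes an RNA-binding protein of germ cell survival, was low in GKO and not in DKO. It had levels of 4.21 and 4.78 TPM in naïve ESCs, 3.85 and 4.54 in AKO, 1.48 and 1.34 in GKO, 5.45 and 5.89 in DKO, and 0.321 and 0.373 in primed ESCs. The GKO libraries lay below every other library in naïve medium, and the DKO libraries lay above them all. Dnd1 fell by 1.19 in GKO against naïve ESCs (SE 0.09, limma adjusted p = 2.08e-05), with an interaction of -1.55 (SE 0.13, adjusted p = 0.000156). It rose by 0.36 in DKO against AKO (SE 0.09, limma adjusted p = 0.0122), a call that was lost without the first AKO library (0.27, adjusted p = 0.0916) or the second DKO library (0.32, adjusted p = 0.0781).

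Nanos3, a translational repressor of primordial germ cells, had levels of 2.03 and 2.78 TPM in naïve ESCs, 1.93 and 2.17 in AKO, 4.91 and 5.04 in GKO, 2.56 and 2.80 in DKO, and 0.290 and 0.190 in primed ESCs. It rose by 0.82 in GKO against naïve ESCs (SE 0.11, limma adjusted p = 0.000344), with an interaction of 0.55 (SE 0.16, adjusted p = 0.0329). Kit, the receptor for stem cell factor, had levels of 31.7 and 31.7 TPM in naïve ESCs, 38.6 and 39.0 in AKO, 37.0 and 36.7 in GKO, 40.05 and 39.3 in DKO, and 5.12 and 6.05 in primed ESCs. It was thus lowest in naïve ESCs among the 4 lines in naïve medium, and it rose by 0.21 in GKO against naïve ESCs (SE 0.06, limma adjusted p = 0.0222), a call that was lost without any 1 of these 4 libraries (0.21 to 0.22, adjusted p = 0.0774 to 0.0927).

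Of 6 factors of meiotic entry and gonadal transcription, Sohlh2, Stra8 and Meioc passed the filter, each with a different pattern. Sohlh2, a basic helix-loop-helix factor of early germ cell differentiation, had levels of 10.9 and 11.8 TPM in naïve ESCs, 15.9 and 14.6 in AKO, 2.05 and 1.55 in GKO, 2.50 and 3.12 in DKO, and 0 in primed ESCs. The lines without Gys1 lay below the others without overlap. It fell by 2.15 in GKO against naïve ESCs (SE 0.11, limma adjusted p = 2.69e-06) and by 2.10 in DKO against AKO (SE 0.11, adjusted p = 4.23e-06), the largest fall among the 27 genes in both comparisons. Stra8, the retinoic acid target that licenses meiotic entry, had levels of 0.217 and 0.193 TPM in naïve ESCs, 0.302 and 0.342 in AKO, 1.36 and 2.15 in GKO, 0.388 and 0.287 in DKO, and 0.138 and 0.186 in primed ESCs. Only the GKO libraries exceeded 1 TPM. The difference of GKO from naïve ESCs was 1.18 on the log2 scale, given with no test because these libraries alone brought Stra8 past the filter. Meioc, which keeps germ cells in meiosis, had levels of 0.385 and 0.446 TPM in naïve ESCs, 0.495 and 0.356 in AKO, 1.01 and 1.11 in GKO, 0.980 and 0.960 in DKO, and 0 in primed ESCs. Its differences, also with no test, were 0.54 in GKO against naïve ESCs and 0.47 in DKO against AKO.

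Of 5 proteins of spermatogenic cells, Slc25a31 and Tex14 passed the filter. Slc25a31, an ADP/ATP carrier of male germ cells, had levels of 1.23 and 1.14 TPM in naïve ESCs, 1.11 and 0.918 in AKO, 0.909 and 1.00 in GKO, 0.355 and 0.559 in DKO, and 0 in primed ESCs. It fell by 0.47 in DKO against AKO (SE 0.09, limma adjusted p = 0.00302). Tex14, a component of germ cell bridges, was between 2.54 and 3.31 TPM in the 4 lines in naïve medium and was called in none of the comparisons among them.

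GKO was next compared with DKO directly, since both lack Gys1 and they differ by label in AMPK. They differed in other ways too, in Ddx3y and Uty as given above and in X-linked genes, whose median change against naïve ESCs was -0.06 in GKO and -0.26 in DKO, so that loss of AMPK and these differences cannot be told apart. In this comparison 16 of 27 genes were called, 13 higher and 3 lower in GKO, where 43.5% of all tested genes were called (21.2% higher and 22.4% lower). Without Meioc and Stra8 it was 15 of 25, where 44.9% of all genes were called without those that passed through 1 side. With a difference of at least 1 also required it was 6 of 27, where 2.68% of all tested genes were called. Stra8, whose high level in GKO was built into its selection, was among the 6. The median difference over the 27 was 0.40, beside -0.01 over all genes tested. The largest differences were those of Ddx4 at 1.54 (SE 0.10, limma adjusted p = 1.2e-05) and Sycp3 at 1.53 (SE 0.10, adjusted p = 1.2e-05). Piwil2 followed at 1.17 (SE 0.19, limma adjusted p = 0.00115). The genes lower in GKO were Dnd1 at -1.47 (SE 0.09, limma adjusted p = 1.14e-05), Tex15 at -1.26 (SE 0.09, adjusted p = 2.02e-05) and Sohlh2 at -0.45 (SE 0.11, adjusted p = 0.0115). The last was lost without the second DKO library (-0.33, limma adjusted p = 0.0887) or the second GKO library (-0.32, adjusted p = 0.0866). Tex19.1, Tex19.2, Dazl, Prdm1, Rec8 and Meioc, whose levels differed in the same direction in both backgrounds, were not called between GKO and DKO (limma adjusted p = 0.445 to 0.925).

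Against naïve ESCs, DKO gave 19 called genes, 5 higher and 14 lower, where 46.0% of all tested genes were called (21.7% higher and 24.3% lower), and 5 with a change of at least 1 also required, where 2.96% of all tested genes were. Without Meioc, Prdm1, Stra8 and Tex19.2 it was 16 of 23, where 47.8% of all genes were called without those that passed through 1 side. In AKO against naïve ESCs, limma called 0 of the 27, where 0.224% of all tested genes were called, and 5 of the 27 had an unadjusted p under 0.05, where 10.2% of all tested genes did. When the primed libraries were left out of the fit, Kit was called in AKO. The sum of the 47 genes was higher in both AKO libraries than in both naïve libraries, with and without Tex19.1. A sum follows its most abundant genes, and the median change of the 27 in AKO was 0.08, beside -0.01 over all genes tested.

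Primed ESCs gave the scale of the naïve-to-primed difference. Of the 27 genes, 24 fell and 1 rose against naïve ESCs, where 80.0% of all tested genes were called (42.5% lower and 37.4% higher), and the median change was -1.50, beside -0.05 over all genes tested. With a change of at least 1 on the log2 scale also required, 20 of the 27 were called, where 27.8% of all tested genes were. Of the 27, however, 19 reached 1 TPM in naïve medium alone, so that a fall in primed ESCs was built into their selection. Of the other 8, 6 fell and 1 rose, where 77.7% of all genes were called without those that reached 1 TPM on 1 side alone. In both primed libraries 19 of the 27 were under 1 TPM, and Dazl, Hormad1, Meioc, Slc25a31, Sohlh2 and Stk31 were listed at 0. Tex19.1 fell most, by 5.89 (SE 0.10, limma adjusted p = 1.87e-10). It was followed by Sohlh2 at -3.63, Syce1 at -3.48 and Dazl at -3.03, which are among the 19 and are given with no test.

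Loss was not complete for every gene. Kit fell by 2.32 (SE 0.06, limma adjusted p = 3e-09) but kept 5.12 and 6.05 TPM, and Syce2 fell by 2.54 (SE 0.06, adjusted p = 1.46e-09) to 4.06 and 4.28 TPM. Sycp1 was at 1.76 and 2.15 TPM in primed ESCs and 3.36 and 3.15 TPM in naïve ESCs, a fall of 0.53 (SE 0.10, limma adjusted p = 0.00116). Mael was between 2.23 and 2.37 TPM in both and was not called (limma adjusted p = 0.935). Tdrkh alone rose, from 1.07 and 1.16 TPM to 12.5 and 15.7 TPM, by 2.82 (SE 0.13, limma adjusted p = 5.75e-08). Piwil2, high in GKO, fell by 0.94 in primed ESCs (SE 0.19, limma adjusted p = 0.00125). Differences with no test, since the genes are among the 19, were -1.67 for Ddx4, -1.88 for Sycp3, -1.45 for Nanos3, -2.03 for Dnd1 and -1.73 for Tex14. GKO and primed ESCs were both compared with the same 2 naïve libraries.

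**Figure D4:**
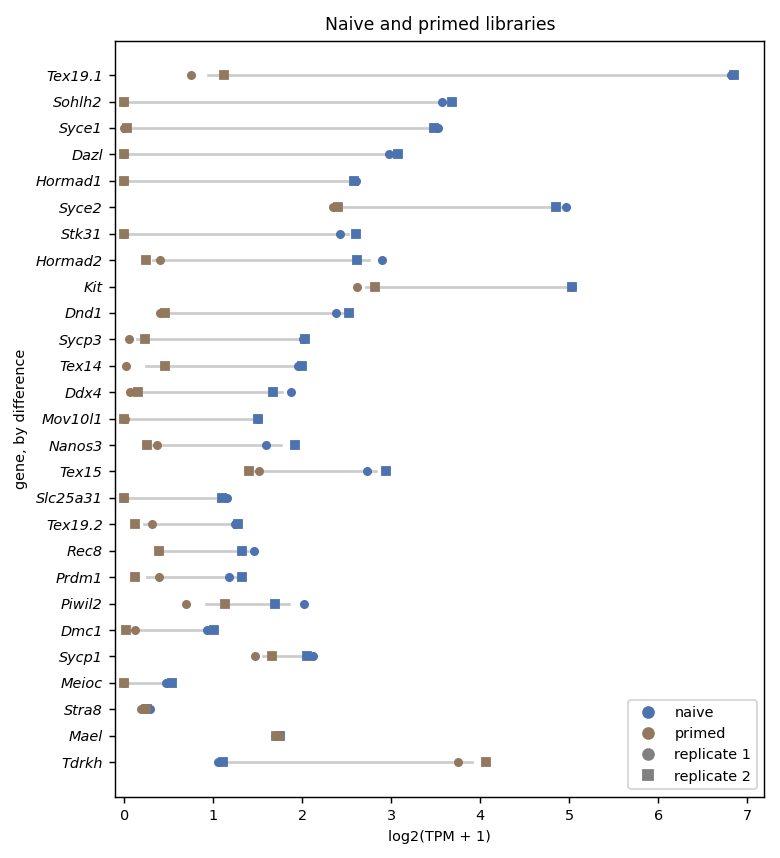
Level of the 27 genes in naïve (blue) and primed (brown) ESCs as log2(TPM + 1), with a circle for replicate 1, a square for replicate 2 and a grey line between the means, ordered by the difference. In most genes both primed libraries lie below both naïve libraries, which was built into the selection of the 19 genes that reached 1 TPM in naïve medium alone. Mael coincides, and Tdrkh lies far to the right in primed ESCs.

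Other genes of the same pathways were counted in the same way. Of 17 other piRNA genes, 11 were tested, and 4 rose and 5 fell in GKO against naïve ESCs (81.8%, beside 51.7% of all tested genes), while 2 rose and 5 fell in DKO against AKO (63.6%, beside 46.3%). Without Ddx25, Gtsf1 and Tdrd7, which passed the filter through 1 side alone, 3 rose and 4 fell in GKO (87.5% of 8). In DKO against AKO 1 rose and 5 fell (75.0% of 8). Of all genes, 53.5% and 48.1% were called once those that passed through 1 side were left out in the same way. The largest fall in both was that of Fkbp6, a co-chaperone of piRNA loading, from 30.0 and 28.1 TPM in naïve ESCs to 5.05 and 4.38 in GKO (-2.40, SE 0.08, limma adjusted p = 3.05e-07). In DKO against AKO it fell from 21.6 and 22.0 TPM to 5.91 and 6.63 (-1.65, SE 0.08, limma adjusted p = 3.27e-06). Gpat2, an acyltransferase of piRNA production, fell by 1.56 in DKO against AKO (SE 0.10, limma adjusted p = 9.55e-06) and by 0.57 in GKO against naïve ESCs (SE 0.10, adjusted p = 0.00145). Of 22 other meiotic genes in the tables, 15 were tested, and 4 rose and 5 fell in GKO against naïve ESCs (9 of 15, beside 51.7% of all tested genes), while 2 rose and 3 fell in DKO against AKO (5 of 15, beside 46.3%). Without Prdm9, Rec114 and Tex12, which passed through 1 side alone, 6 of 12 and 3 of 12 were called, a share near or below that of all genes. Rec114, a partner of the break-forming machinery, had levels of 4.39 and 4.24 TPM in naïve ESCs, 2.98 and 2.59 in AKO, 0.098 and 0 in GKO and 0.942 and 0.993 in DKO, which are given with no test. Tex11, an X-linked gene of synapsis and crossover formation, rose from 0.936 and 1.24 TPM in naïve ESCs to 4.26 and 3.87 in GKO (1.28, SE 0.09, limma adjusted p = 1.35e-05) and fell by 0.45 in DKO against AKO (SE 0.09, adjusted p = 0.00385). X-linked genes had a median change of -0.29 in the latter, and relative to its chromosome the change of Tex11 was -0.14 and was not called (limma adjusted p = 0.269).

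Repressors known to act on germline genes were counted next. Of the 8 genes of DNA methylation and demethylation, all were tested, and 2 rose and 2 fell in GKO against naïve ESCs (4 of 8, a share near the 51.7% of all tested genes), while 4 rose and 1 fell in DKO against AKO (62.5%, beside 46.3%). Dnmt3l, the cofactor of de novo methylation, had levels of 208 and 211 TPM in naïve ESCs, 161 and 172 in AKO, 59.2 and 53.2 in GKO, 198 and 207 in DKO, and 0.209 and 0.115 in primed ESCs. It fell by 1.88 in GKO against naïve ESCs (SE 0.07, limma adjusted p = 3.13e-07) and was higher by 0.28 in DKO than in AKO (SE 0.07, adjusted p = 0.00745). The latter call was lost without the first AKO library (0.23, limma adjusted p = 0.0617), without the second DKO library (0.25, adjusted p = 0.0541) and with a pseudocount of 0.1 (0.28, adjusted p = 0.13). The de novo methyltransferases Dnmt3a and Dnmt3b were not called in GKO (limma adjusted p = 0.0637 and 0.971). In DKO against AKO, Dnmt3a fell by 0.82 (SE 0.07, limma adjusted p = 4.52e-05) and Dnmt3b rose by 0.87 (SE 0.06, adjusted p = 1.64e-05). In primed ESCs Dnmt3b was at 222 and 254 TPM and Dnmt3a at 71.5 and 63.3 TPM, against 27.5 and 28.3 and 14.8 and 16.3 TPM in naïve ESCs.

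Of 18 genes of PRC1.6 and of H3K9 methylation, 4 rose and 4 fell in GKO against naïve ESCs (44.4%, below the 51.7% of all tested genes), and 5 rose and 8 fell in DKO against AKO (72.2%, beside 46.3%). Pcgf6, the subunit that defines PRC1.6, had levels of 53.4 and 54.9 TPM in naïve ESCs, 55.8 and 58.7 in AKO, 32.3 and 33.4 in GKO, 36.7 and 36.5 in DKO, and 20.7 and 22.3 in primed ESCs. It fell by 0.70 in GKO against naïve ESCs (SE 0.05, limma adjusted p = 1.35e-05) and by 0.63 in DKO against AKO (SE 0.05, adjusted p = 2.89e-05). It lies on chromosome 19, where the median changes were -0.40 and -0.26, and relative to its chromosome Pcgf6 fell by 0.28 (limma adjusted p = 0.00258) and 0.36 (adjusted p = 0.000782). E2f6 had levels of 14.1 and 13.8 TPM in naïve ESCs, 15.6 and 15.5 in AKO, 13.6 and 14.8 in GKO, and 8.24 and 8.83 in DKO. It fell by 0.80 in DKO against AKO (SE 0.07, limma adjusted p = 3.28e-05), and GKO was not called (adjusted p = 0.768). Of 7 primordial germ cell factors 6 were tested, and 3 rose and 0 fell in GKO against naïve ESCs (3 of 6, near the 51.7% of all tested genes), while 2 rose and 2 fell in DKO against AKO (66.7%, beside 46.3%). Tfap2c, a transcription factor of germ cell specification, had levels of 6.68 and 6.29 TPM in naïve ESCs, 7.40 and 6.54 in AKO, 23.2 and 24.3 in GKO, 6.57 and 6.71 in DKO, and 1.78 and 5.97 in primed ESCs, a rise of 1.72 in GKO (SE 0.33, limma adjusted p = 0.00217). Dppa3, also named Stella, rose by 0.59 in GKO against naïve ESCs (SE 0.13, limma adjusted p = 0.00457) and by 1.46 in DKO against AKO (SE 0.13, adjusted p = 4.35e-05). Whether any of these repressors or factors had a part in the changes of the 47 genes was not tested.

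**Figure D5:**
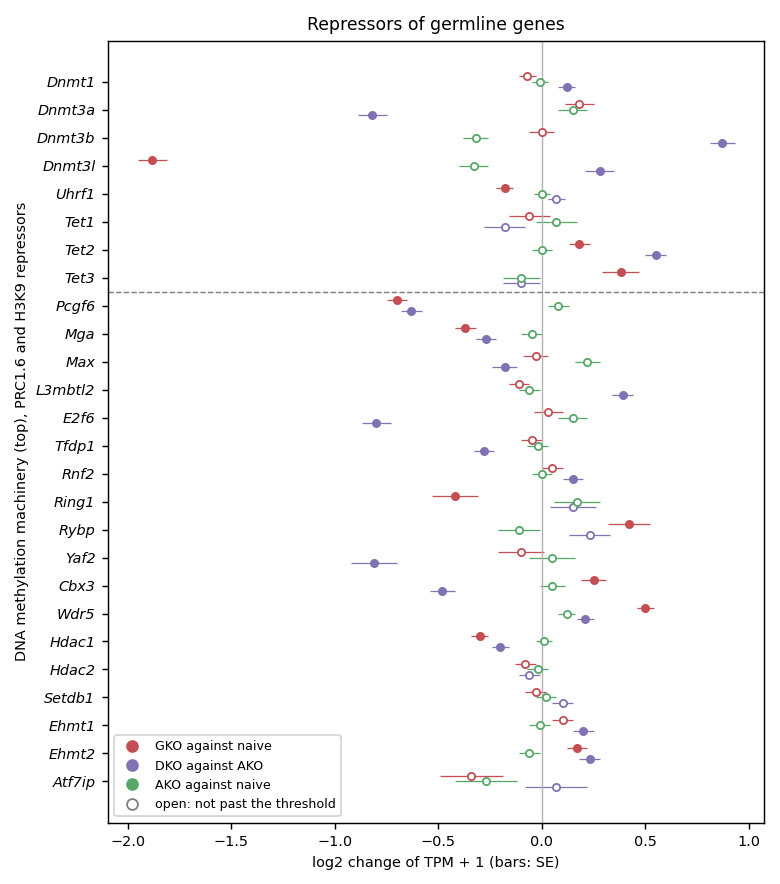
Change on the log2(TPM + 1) scale of 8 genes of DNA methylation and demethylation (above the dashed line) and 18 genes of PRC1.6 and H3K9 methylation (below it) in GKO against naïve ESCs (red), DKO against AKO (purple) and AKO against naïve ESCs (green), with bars of 1 standard error and filled points where the change was called. Dnmt3l lies far to the left in GKO at -1.88, Pcgf6 is negative in both comparisons of Gys1 loss, and none of these genes was called in AKO.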

How the data were processed

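RNA-seq of 10 libraries was used, with the line and replicate number taken from the sample records. The authors deposited 1 table per library that holds the TPM of each gene, estimated with RSEM. The submitters' processing notes name Trim Galore 0.6.6, STAR 2.7.9a, RSEM 1.3.3 and FastQC with builds GRCm38 and GRCh38, while the methods of the paper name GRCm39. The labels describe an Illumina stranded kit and reads of 75 bp, and the methods a kit from MGI, so the build and kit behind the tables stayed unclear. TPM keeps no read depth, so no counting interval or detection limit was derived, and a gene at 0 is described as listed at 0. Each table's values added up to between 500162 and 578952. RSEM divides reads among similar transcripts, so close paralogs such as Tex19.1 and Tex19.2 are uncertain. All columns were used (0 left out).

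The deposited values were put on the scale log2(TPM + 1), and genes were kept where 2 libraries or more reached 1 TPM. A change on this scale understates that of low genes. Limma 3.58.1 in R 4.3.3 was fitted with a mean per line over all 10 libraries and an intensity trend, with Benjamini-Hochberg adjustment over all 12060 genes of a comparison and a threshold of 0.05, and was tested on simulated data. The methods of the paper state no test for these libraries. P-values measure the spread between the 2 libraries of a line, which may be technical, and the smallest two-sided exact p of 2 libraries against 2 is 0.333. Median differences between replicates lay between 0.0555 and 0.127 on the log2 scale. Genes of the list were given with all values where they passed the filter and a change was called at 0.5 or more on the log2 scale among the lines in naïve medium, or at 1 or more in primed ESCs. From each list of other genes, at most 4 with the largest called changes were named. The genes and the lists were chosen with earlier results of these data known. Of the genes in the other lists and marker lists, 6 were not matched by symbol. Gene positions came from GENCODE on GRCm39 and promoters from RefSeq on GRCm38.p6, and no coordinate was converted. Of the 41 promoters, 39 matched a transcript of the same gene after the start.

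Alternatives were a pseudocount of 0.1, no filter, a filter at a mean of 1 TPM, rescaling to the same sum, median-ratio scaling, quantile normalization, no intensity trend, the replicate number as a block, a minimum log2 change of 1, other sets of libraries, and each library left out. Centring on the median of each gene's chromosome, and counts without genes that reached 1 TPM on 1 side of a comparison alone, were added after the data were seen.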

Additional observations from a re-analysis of the deposited data

Results flagged for a closer look

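In 12 genes the change with loss of Gys1 differed between lines with and without the AMPK KO label. This was tested by the interaction on the log2 scale, with limma across 12060 genes. It was above 0 for Ddx4 at 1.66 (adjusted p = 0.000162), Sycp3 at 1.64 (adjusted p = 0.000164), Piwil2 at 0.99 (adjusted p = 0.0241) and Syce1 at 0.70 (adjusted p = 0.00819). Smaller values above 0 were those of Mov10l1 at 0.55 (limma adjusted p = 0.0156), Nanos3 at 0.55 (adjusted p = 0.0329), Mael at 0.54 (adjusted p = 0.0236), Hormad1 at 0.48 (adjusted p = 0.0121) and Syce2 at 0.29 (adjusted p = 0.042). It was below 0 for Dnd1 at -1.55 (limma adjusted p = 0.000156) and Tex15 at -1.47 (adjusted p = 0.000177). It was also above 0 for Stra8 at 1.16, but this gene passed the filter through its GKO libraries alone, so that the difference was built into its selection, and without it 11 genes were called. Over all genes 25.8% were called in this comparison. The lines also differed in Y-linked and X-linked genes, and loss of Gys1 or AMPK and these differences cannot be told apart. Lines of 2 libraries allow no test for a library that stands apart.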

How the results depend on the processing

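None of the 108 called results of the 27 genes reversed under any alternative, and 92 kept their call under each alternative other than a minimum log2 change of 1. Of the 92, 12 are calls among lines in naïve medium of Meioc, Prdm1, Stra8 and Tex19.2, which passed the filter through 1 side of the comparison, so that their stability says nothing. The 92 also hold the calls in primed against naïve ESCs. There 19 of the 27 genes had reached 1 TPM in naïve medium alone, and the stability of their calls says nothing either. The minimum log2 change of 1 left 6 genes in GKO against naïve ESCs, 5 in DKO against naïve ESCs, 6 in DKO against AKO, 6 in GKO against DKO and 5 in the interaction. Stra8, subject to the limit on its selection, was among those left in GKO against naïve ESCs, in GKO against DKO and in the interaction. Without the primed libraries, 1 gene was called in AKO against naïve ESCs (Kit, 0.29). With each library left out in turn, the number of called genes lay between 17 and 18 in GKO against naïve ESCs, 16 and 18 in DKO against naïve ESCs, 15 and 17 in DKO against AKO, 12 and 15 in GKO against DKO, and 7 and 11 in the interaction. It stayed at 0 in AKO and at 25 in primed ESCs. The interaction count of 7 was reached without the first AKO library and without the second DKO library. Fewer libraries enter those fits.

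Outside the minimum change, 16 calls were lost under at least 1 alternative. The interaction lost Mael (0.43 to 0.57, adjusted p up to 0.0856) without a naïve or AKO library, the second DKO or the first GKO library. It lost Mov10l1 (0.46 to 0.55, up to 0.0624) without a naïve library, the first AKO, the second DKO or the first GKO library. It lost Piwil2 (0.77 to 1.16, up to 0.112) without the second naïve, the first AKO, the second DKO or a GKO library, with no filter and with a pseudocount of 0.1. It lost Nanos3 (0.39 to 0.66, up to 0.104) without any library but the second naïve one, with no filter and with a pseudocount of 0.1. It lost Syce2 (0.23 to 0.35, up to 0.152) without any library but the first DKO one, with no filter, no trend and the block. GKO against DKO lost Tdrkh (0.35 to 0.45, up to 0.149) without any of its libraries, with no filter and with quantile normalization. It lost Mov10l1 without the second DKO (0.34) or the first GKO library (0.35), Stk31 without the second DKO library (0.34) and relative to its chromosome (0.23), and Sohlh2 as given above. GKO against naïve ESCs lost Kit with no filter too, and Mov10l1 without a naïve library (-0.35) or the second GKO library (-0.27). DKO against naïve ESCs lost Sycp1 (-0.39 to -0.29, up to 0.122) without a naïve or the second DKO library and with no filter. It lost Hormad2 without the first naïve library (-0.56, adjusted p = 0.0692) and with no filter, and Dnd1 (0.21 to 0.33, up to 0.214) without the first naïve or a DKO library, with no filter, quantile normalization and a pseudocount of 0.1. DKO against AKO lost Syce2 (-0.22 to -0.13, up to 0.185) without an AKO or the second DKO library and after rescaling. These values are from limma, and the cause was not tested.

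With the replicate block, 19 genes were called in GKO, 19 in DKO, 0 in AKO and 25 in primed ESCs against naïve ESCs, 17 in DKO against AKO, 16 in GKO against DKO and 11 in the interaction. The numbers did not pair the libraries, since the deviations of same-numbered libraries correlated between -0.128 and 0.078. Read depth is not known from TPM, so how few reads stand behind values near the filter cannot be told.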
